A study of Mus musculus with 49 samples.

Results

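The second week of monolayer culture of adult mouse hepatocytes was examined by comparing 3 libraries collected after 14 days with 3 collected after 7 days. These are 6 of the 49 libraries of the series, taken by their labels and numbered by the replicate number in their titles. All came from livers of wild-type C57BL/6J mice aged 10 weeks. The study's methods give the animals as male. Hepatocytes were released by collagenase, parted from the other liver cells and blood cells by repeated centrifugation, plated on type I collagen and kept in medium with epidermal growth factor (EGF, 20 ng/mL). The groups therefore share strain, genotype, age, plating and growth factor, and differ in days of culture. The labels do not say whether replicates came from separate mice, so the p-values measure the spread between these libraries, which may be technical in part. The comparison asks what still changed in expression after the first week, while the cells were on the way to the passaged, progenitor-like cells the study terms dediHeps.

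Hepatocytes are the liver cells that secrete albumin, carrier proteins and clotting and complement factors into plasma, and that hold most of the enzymes of drug, amino acid and lipid metabolism. Taken from the liver and spread on a flat matrix, they gradually lose these products, a process called dedifferentiation, and take on features of biliary, progenitor and mesenchymal cells. The major urinary proteins (Mup) are small lipid carriers that male mouse hepatocytes make in large amounts and shed into urine.

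Of the 6 libraries, 3 stood out before any test. Totals were 2746168, 1797032 and 2481094 UMI counts (unique molecules) at 7 days and 2554130, 1760198 and 861047 at 14 days, so 14-day replicate 3 was the shallowest of all 49 libraries. Despite that depth it had a count in 20048 genes, against 15986 to 17346 in the other 5, and 3826 of these genes had a count in none of the others. Its summed level of 12 predicted Gm genes, picked after their values were seen, was 22350 CPM, against 71.8 to 2043. CPM are UMI counts scaled to the library total, unadjusted in this sum and adjusted by the TMM factor for the gene levels below. The mitochondrial share of 14-day replicate 3 was 3.12%, against 1.29 to 1.70%. The 7-day replicate 2 correlated least with its own group (Spearman 0.753 and 0.893 across genes) and its counts fell on transcripts with the lowest GC content of all 49 libraries at the 3′ end (40.6%, against 42.3 to 43.5% in the other 5). The 7-day replicate 1 had a Spearman correlation of 0.922 to 0.947 with the 14-day libraries, higher than with either library of its own group (0.753 and 0.898). The counts of calls are therefore given with and without these libraries, and what set them apart was not tested.

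Between 7 and 14 days, 126 of 10890 genes tested were called, that is, past an FDR of 0.1 in edgeR's quasi-likelihood test and past a log2 fold change of 2 in either direction. They are 1.16% of the genes tested. Of these, 72 were higher at 14 days (0.661%) and 54 were lower (0.496%). Without regard to fold, 150 genes passed the FDR (1.38%), 82 of them higher (0.753%) and 68 lower (0.624%). The groups did not overlap in CPM for 2178 genes (20.0% of those tested), and for all 126 called genes. The median gene moved by -0.03 on the log2 scale, with 5270 genes above 0 and 5620 below. The counts of list members below are to be read beside these shares over all genes. The median 95% confidence half-width of a single gene, not adjusted for the number of tests, was 0.956. Changes below that size in an average gene were not detectable here, and larger ones could also miss the FDR. Prom1, for example, had a log2 fold change of 1.75 (interval 0.76 to 2.73) and an adjusted p of 0.13 in edgeR's test. When libraries were scaled by their totals alone, the median shifted to -0.17 and the split became 82 higher and 169 lower.

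**Figure D1:**
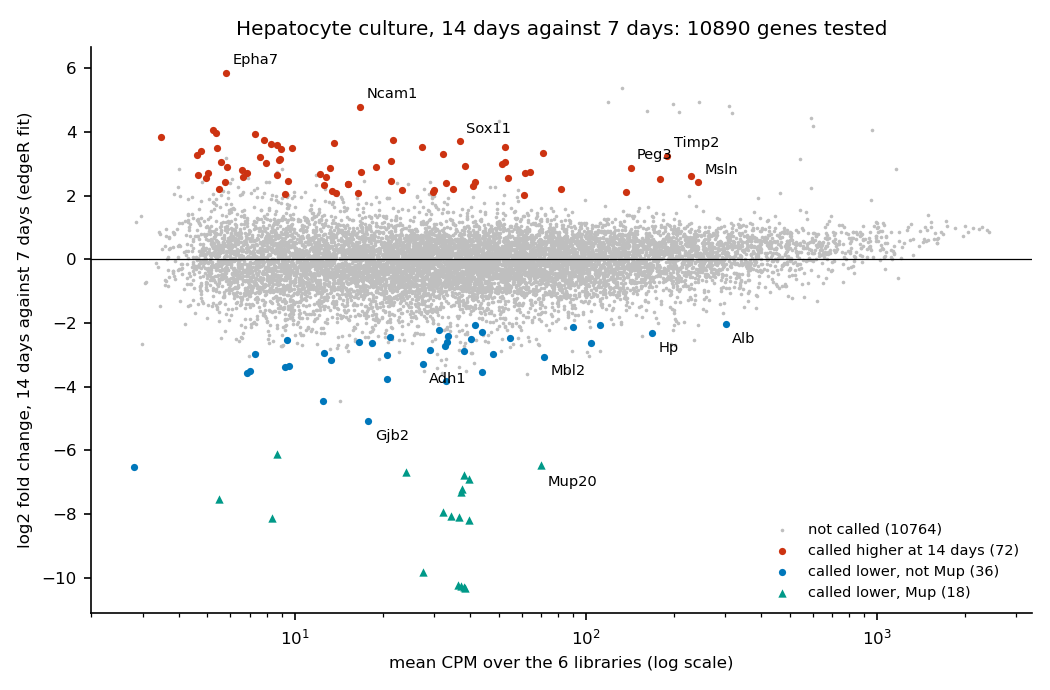
Each point is 1 of the 10890 genes tested, with its mean CPM over the 6 libraries (log axis) against its log2 fold change, 14 days against 7 days. Red points are the 72 genes called higher, blue points and green triangles the 54 called lower, the triangles being the 18 Mup genes. The 12 uncalled genes above a log2 fold change of 4 are predicted Gm genes, all highest in 14-day replicate 3.

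How firmly a gene was called depended on which library was in the fit. Leaving out 1 library at a time gave 28 to 979 called genes. Without 7-day replicate 1 there were 979 (353 higher and 626 lower), and without 7-day replicate 2 there were 126 (68 and 58). Of the latter, 103 were among the 126 called with all 6 libraries. Without 7-day replicate 3 there were 39 (14 and 25). Without 14-day replicates 1, 2 and 3 there were 30, 28 and 55. Leaving out 7-day replicate 2 and 14-day replicate 3 together, an alternative chosen after seeing the data, gave 167 (94 and 73), of which 104 were among the 126. In all 6 fits with 1 library left out, 28 of the 126 genes were called. These 28 were 16 Mup genes, Cyp2c70, Fgl1 and Gjb2 on the lower side, and Timp2, Uts2b, Ncam1, Hecw1, Peg3, Sox11, Msln, Hs6st2 and Kcnab1 on the higher side. Every other called gene, including those described below, lost its call in at least 1 of these fits.

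**Figure D2:**
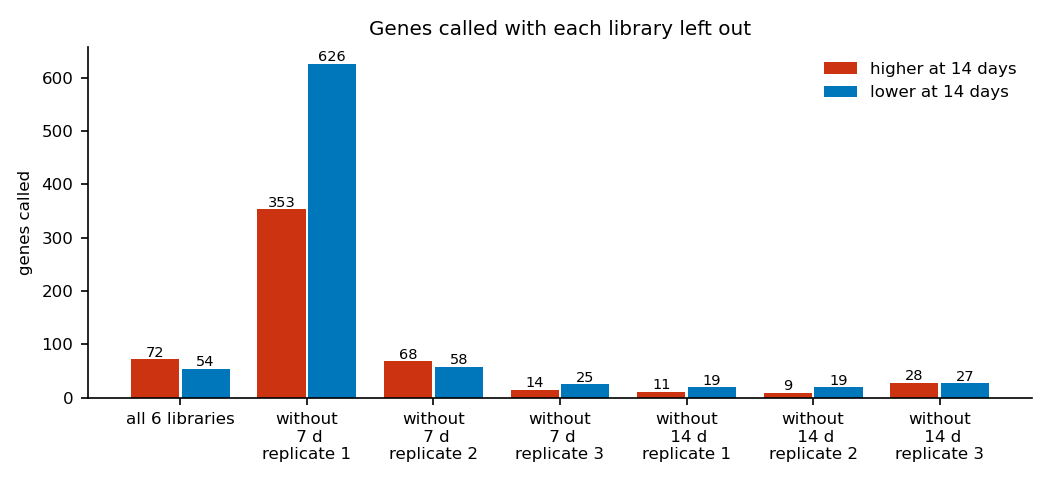
Bars count the genes called higher (red) and lower (blue) at 14 days with all 6 libraries and with each library left out. The pair without 7-day replicate 1 (353 and 626) stands far above the others, and the pair without 14-day replicate 2 (9 and 19) is the lowest.

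The major urinary proteins fell furthest as a family. All 18 Mup genes that were tested, of 21 in the list, were called lower (0.496% of all genes were). They lie in 1 cluster on chromosome 4 (GRCm38, 59956804 to 62087342). Their summed level was 724, 907 and 1886 CPM in the 7-day libraries and 4.84, 1.25 and 13.4 CPM in the 14-day libraries, that is, 8856 counts against 25. The lowest 7-day library was far above the highest 14-day library. A bulk library cannot tell fewer cells that make a transcript from less of it in each cell, and this holds for every gene below.

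Mup20, the member with the most counts left at 14 days, had 300, 187 and 563 counts at 7 days and 6, 1 and 1 at 14 days. It was 87.4-fold lower (95% interval 37.0 to 207), with an adjusted p of 0.0023 in edgeR's quasi-likelihood test. Mup3 went from 129, 54 and 182 counts to 1, 0 and 1, a ratio of 126 with a counting interval of 34.6 to 1040. For 7 of the 18 genes no 14-day library had a count. Mup13, which had 118, 122 and 334 counts at 7 days, was at least 132-fold lower, taking 3 counts over the 14-day group as the floor. The list's median log2 fold change was -8.01 as fitted and -7.01 with the 7 genes at their bound.

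The 18 calls are not 18 separate measurements. The Mup genes are near-copies of each other, and the libraries read only the 3′ end. In the GENCODE M21 transcripts, 138 of the 153 pairs of these genes shared a run of 31 bases within their last 300 bases. For 11 of the 18, over 90% of such runs also occurred in another of them. How the reads were shared out among copies is uncertain, and the fall is best read as that of the family. With the family summed into 1 feature, chosen after seeing the data, 105 genes were called, 70 higher and 35 lower. The least similar members, Mup3 (13.3% of runs shared) and Mup20 (25.9%), fell as the others did.

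The remaining 36 genes called lower were mostly liver products. Their median level went from 51.1 CPM at 7 days to 6.68 CPM at 14 days. Of these genes Apof alone had no count at 14 days, and 12 had 15 counts or fewer there.

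Among secreted plasma proteins, Alb, which encodes albumin (chromosome 5, GRCm38, 90460897 to 90476602), had 496, 428 and 530 CPM at 7 days and 107, 92.4 and 154 CPM at 14 days. It was 4.13-fold lower (2.46 to 6.93), with an adjusted p of 0.021 in edgeR's test. Hp, which encodes the haemoglobin-binding protein haptoglobin, went from 318, 245 and 280 CPM to 48.0, 64.3 and 56.3 CPM, 5.00-fold lower (3.04 to 8.21; adjusted p = 0.0071). Both genes separated the groups in every library. Hpx, encoding the haem carrier hemopexin, had 321, 439 and 371 CPM against 122, 113 and 149 CPM, and passed the test with a smaller change (2.95-fold lower, adjusted p = 0.051). Of the 22 plasma protein genes tested, of 28 listed, these 3 passed, all lower (0.624% of all genes passed lower). Of the 22, 19 had a log2 fold change below 0, against 5620 of all 10890 genes. The median was -0.78, against -0.03 over all genes.

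Complement and clotting factors were the list with the lowest median apart from the Mup genes. Of 19 tested, of 38 listed, 5 passed, all lower (0.624% of all genes passed lower), and the median log2 fold change was -1.17. Mbl2, a lectin that starts the complement cascade, had 83.8, 183 and 116 CPM at 7 days and 11.9, 16.2 and 18.8 CPM at 14 days (8.30-fold lower, 4.37 to 15.8; adjusted p = 0.0068). Serping1, the C1 inhibitor, went from 31.8, 27.5 and 56.1 CPM to 2.98, 1.87 and 4.02 CPM, 13.4-fold lower (adjusted p = 0.0068). C1ra, a protease of the C1 complex, had 38, 28 and 28 counts at 7 days and 5, 1 and 0 at 14 days. F2, encoding prothrombin, was 3.73-fold lower, below the fold needed for a call. Fgl1, a fibrinogen-like secreted protein named after its values were seen, went from 46.9, 127 and 70.1 CPM to 7.44, 7.49 and 5.36 CPM, 11.6-fold lower. Alb, Hp, Mbl2, Serping1, C1ra and F2 no longer passed the FDR of 0.1 when 14-day replicate 1 or 2 was left out, whereas Fgl1 did.

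Lipoprotein and lipid genes moved less uniformly. Apof, an apolipoprotein that regulates lipid transfer, had 13, 12 and 15 counts at 7 days and none at 14 days, at least 9.18-fold lower against a floor of 3 counts over the group. Of 14 genes tested in the apolipoprotein list 2 passed, both lower, and the list's median was -0.65 both as fitted and with Apof at its bound. Scd1, the enzyme that makes monounsaturated fatty acids, had 108, 177 and 253 CPM at 7 days and 36.5, 33.1 and 14.7 CPM at 14 days (6.20-fold lower, adjusted p = 0.026). It was the only 1 of 29 lipid synthesis genes that passed, with 18 of the 29 below 0. In fatty acid oxidation, 1 of 17 passed and it was higher. This was Acot1, a cytosolic acyl-CoA thioesterase, at 25.5, 30.8 and 20.9 CPM against 97.9, 109 and 65.7 CPM (3.56-fold higher, adjusted p = 0.045).

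Of 41 phase I drug and alcohol metabolism genes listed, only 13 had enough counts to be tested, and 2 of these passed. Cyp2c70, which hydroxylates bile acids in mice, had 37.7, 53.9 and 94.5 CPM at 7 days and 5.21, 4.37 and 2.68 CPM at 14 days, 14.1-fold lower (6.49 to 30.6; adjusted p = 0.0058). Adh1, the liver alcohol dehydrogenase, had 58.7, 42.9 and 47.1 CPM against 4.84, 3.12 and 8.04 CPM, 9.84-fold lower (adjusted p = 0.0068). Of 19 phase II genes tested, 2 passed, both lower. They were Sult1a1, a sulfotransferase (5.26-fold lower), and Mgst1, a membrane-bound glutathione transferase (4.15-fold lower). Cth, which makes cysteine from cystathionine, was the 1 gene of 17 in amino acid breakdown and the urea cycle that passed, at 28.1, 107 and 63.6 CPM against 7.07, 6.87 and 14.7 CPM. The 7-day values of Cth, Mgst1 and Sult1a1 were highest in 7-day replicate 2, and each of the 3 genes passed without that library. None of the 3 passed when 7-day replicate 3 or any 1 of the 14-day replicates was left out.

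Gjb2, which encodes a gap junction protein of hepatocytes and was named after its values were seen, had 21.4, 52.8 and 30.2 CPM at 7 days and 1.49, 0 and 1.34 CPM at 14 days, 33.8-fold lower (11.2 to 102). Other liver lists held no gene that passed. The hepatocyte transcription factors (21 tested, median -0.38, 16 below 0) did not pass. Hnf4a, the nuclear receptor that sustains the hepatocyte programme, had 378, 249 and 322 CPM at 7 days and 270, 154 and 310 CPM at 14 days. Its log2 fold change was -0.37, with a 95% interval of -1.16 to 0.42. Bile acid genes (8 tested) and gluconeogenesis genes (5 tested) also had none that passed.

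The 72 genes called higher started low. Their median level was 3.87 CPM at 7 days and 24.2 CPM at 14 days, and 29 of them had 15 counts or fewer over the 3 libraries of 7 days.

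Timp2, an inhibitor of matrix metalloproteinases (chromosome 11, GRCm38, 118301069 to 118355740), had 30.3, 41.2 and 36.7 CPM at 7 days and 323, 396 and 312 CPM at 14 days. It was 9.54-fold higher, with an adjusted p of 0.0026 in edgeR's test, a value shared by Uts2b and Ncam1. It was the 1 of 12 tested protease and inhibitor genes that passed. Msln, encoding mesothelin, a surface protein of mesothelial and some epithelial cells, had 75.7, 75.8 and 77.3 CPM at 7 days and 465, 432 and 332 CPM at 14 days (5.37-fold higher, adjusted p = 0.0058). Peg3, a paternally expressed imprinted zinc-finger gene and the 1 of 15 tested oncofetal genes that passed, had 31.03, 33.5 and 37.4 CPM against 200, 321 and 231 CPM (7.35-fold higher, adjusted p = 0.0035). In these 3 genes the spread within each group was small beside the step.

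Several risers are better known from neurons. Ncam1, the neural cell adhesion molecule, had 2, 3 and 3 counts at 7 days and 89, 49 and 25 at 14 days, which is 0.739, 1.65 and 1.08 CPM against 33.1, 30.6 and 33.5 CPM. It was 27.7-fold higher (12.9 to 59.3). Sox11, a transcription factor of developing neurons, had 7.39, 4.95 and 3.24 CPM against 89.0, 65.5 and 50.9 CPM, 13.1-fold higher. Hecw1, a ubiquitin ligase, rose 11.4-fold and Uts2b, the urotensin-related peptide, rose 10.0-fold. The last had 11.4, 14.3 and 12.9 CPM at 7 days and 138, 114 and 137 CPM at 14 days. Kcnab1, a potassium channel subunit, was 9.92-fold higher and Hs6st2, a heparan sulfate sulfotransferase, 13.3-fold higher. Epha7, an ephrin receptor, had 1 count in all at 7 days and 20, 24 and 9 at 14 days, a ratio of 76.9 with a counting interval of 13.2 to 3100. No neuronal list was tested, and the tissue of these genes is given as background.

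**Figure D3:**
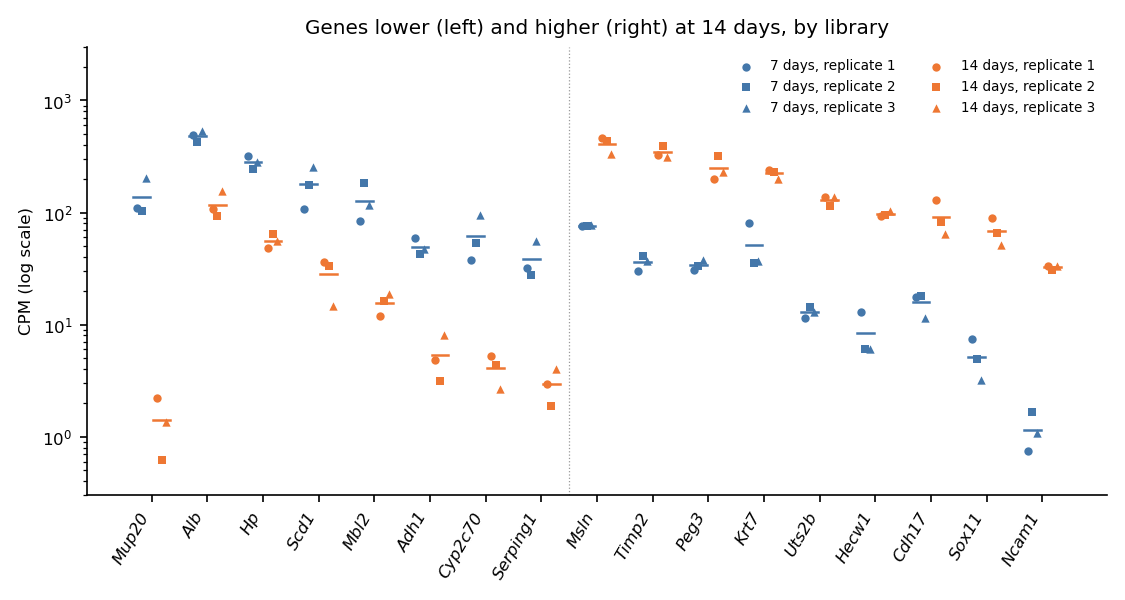
CPM (log axis) of 17 genes in each of the 6 libraries, 7 days in blue and 14 days in orange, with the marker shape giving the replicate and the bar the mean of 3. For each gene the 3 points of 14 days lie wholly below (8 genes at left) or above (9 genes at right) the 3 points of 7 days.

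Bile duct and gut-associated genes rose in small numbers. In the separate list of keratin and epithelial genes, 0 of 20 tested passed, with 9 above and 11 below 0 (median log2 fold change -0.07). Krt7, a keratin of bile duct cells, had 80.9, 35.7 and 37.0 CPM at 7 days and 241, 228 and 200 CPM at 14 days (4.35-fold higher, adjusted p = 0.041), and was the 1 of 12 cholangiocyte and progenitor genes that passed. Krt19, another duct keratin, stayed at 82.0, 37.9 and 61.5 CPM against 67.0, 38.1 and 76.4 CPM, with a 95% interval of -0.90 to 0.88 on the log2 scale. Of 10 gut epithelial genes tested, of 31 listed, 2 passed, both higher (0.753% of all genes passed higher). Cdh17, a cadherin of intestinal epithelium, had 17.7, 18.1 and 11.5 CPM against 128, 83.0 and 64.3 CPM (5.87-fold higher, adjusted p = 0.018). Vil1, encoding the brush border protein villin, had 14, 3 and 7 counts against 65, 14 and 23 (6.44-fold higher, adjusted p = 0.088). In the 6 fits with 1 library left out, Vil1 no longer passed the FDR of 0.1 in 5, Krt7 in 4 and Cdh17 in 3. Cdx2, an intestinal transcription factor, had 0 counts in all 6 libraries, which allows up to 1.09 to 3.48 CPM in a library, and 0 counts at every time point, against 2.19 to 122 CPM in the dediHep libraries.

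Matrix, signalling and metabolic members rose singly. Lamb1, a laminin chain, was at 13.7, 14.3 and 6.11 CPM against 68.9, 47.4 and 28.2 CPM (4.32-fold higher, adjusted p = 0.086) and was the 1 of 27 matrix and integrin genes that passed, with 20 of the 27 above 0. Wnt4, a Wnt ligand, had 2.59, 0.550 and 1.44 CPM against 22.3, 22.5 and 9.38 CPM (11.3-fold higher, adjusted p = 0.028). Sfrp1, a secreted Wnt inhibitor, had 18.5, 8.24 and 14.7 CPM against 45.8, 101 and 57.6 CPM (4.88-fold higher, adjusted p = 0.046). These were the 2 of 15 Wnt pathway genes that passed. Lfng, which glycosylates Notch receptors, was 8.20-fold higher (adjusted p = 0.061), the 1 of 10 Notch genes that passed. Slc16a3, a lactate exporter, had 8.50, 1.65 and 2.52 CPM against 54.3, 59.9 and 37.5 CPM, 11.6-fold higher. It was the 1 of 22 glycolysis genes that passed, while 20 of the 22 had a log2 fold change above 0 (median 0.54), and 17 of 22 did when libraries were scaled by their totals alone. Lamb1, Sfrp1 and Lfng no longer passed the FDR of 0.1 in 4 of the 6 fits with 1 library left out. Wnt4 and Slc16a3 no longer did in 3 of them.

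The lists of Yap targets (22 tested), endoplasmic reticulum stress genes (26) and chemokine and NF-kB genes (18) each had 1 member that passed, lower in each. They were Birc3, an inhibitor of apoptosis induced by NF-kB (21.1, 99.5 and 50.7 CPM against 8.56, 9.99 and 6.70 CPM), Ppp1r15a, which restarts translation after stress (7.02, 21.98 and 43.5 CPM against 3.35, 2.50 and 1.34 CPM), and Fjx1, a Yap target (5.58-fold lower, adjusted p = 0.099). Their 7-day values were widely spread, and in Birc3 and Fjx1 7-day replicate 2 was the highest. Without 7-day replicate 2 and 14-day replicate 3, neither Birc3 (adjusted p = 0.12) nor Fjx1 (adjusted p = 0.23) passed in edgeR's test, and the Yap and the NF-kB lists each had 2 members that passed higher and 0 lower, so the direction of the passes in these lists turned with those libraries. The best-known Yap targets showed the same spread. Ccn1 had 39.2, 877 and 97.1 CPM at 7 days and 51.0, 36.8 and 75.1 CPM at 14 days, and Ccn2 had 160, 845 and 169 CPM against 108, 92.4 and 76.4 CPM. Neither passed (adjusted p = 0.22 and 0.17), and each was highest in 7-day replicate 2.

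**Figure D4:**
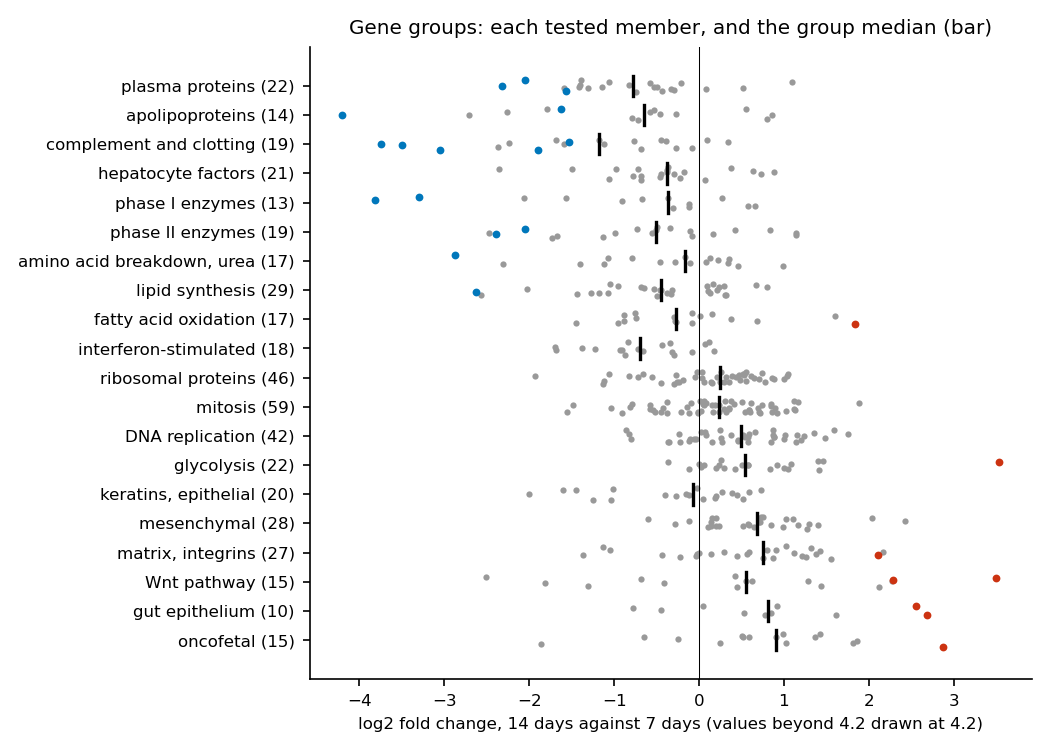
Each point is a tested member of 1 gene group (number tested in brackets) at its log2 fold change, 14 days against 7 days, blue and red where it passed an FDR of 0.1 lower or higher, and grey where it did not. Black bars are group medians, from -1.17 in complement and clotting to 0.90 in the oncofetal group, and Apof is drawn at the left limit.

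The lists of proliferation, mesenchymal and housekeeping genes had no gene that passed. Lamb1, counted above with the matrix genes, did pass higher, and the study uses it as a mesenchymal marker. S100a7a, which the study also uses so, had too few counts to be tested. It had 7, 2 and 3 counts at 7 days and 28, 9 and 3 at 14 days. Of 42 DNA replication genes none passed, with 31 above 0 (median 0.49), and of 59 mitosis genes none passed, with 39 above 0 (median 0.23). Mki67 had 59.1, 243 and 139 CPM at 7 days and 109, 195 and 216 CPM at 14 days, with a 95% interval of -0.84 to 1.31 on the log2 scale. Of 28 mesenchymal genes, 25 were above 0 with a median of 0.68 (23 and 0.53 when scaled by library totals alone), and none passed. Vim, the mesenchymal filament vimentin, had 548, 742 and 520 CPM against 568, 544 and 973 CPM, and Cdh1, which encodes E-cadherin, 539, 691 and 526 CPM against 542, 577 and 606 CPM. For Cdh1 the interval of the log2 change was -0.70 to 0.65. Interferon-stimulated genes (18 tested, 15 below 0, median -0.69), ribosomal proteins (46, median 0.25) and oxidative phosphorylation genes (33, median 0.08, and -0.06 when scaled by library totals alone) likewise had none that passed. The median 95% half-width of single genes in these 6 lists was 0.775 to 1.07 log2 units, not adjusted for the number of tests. Smaller shifts, and some larger ones, could therefore not be resolved gene by gene.

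Markers of the other liver cells were counted beside these results. Of 19 Kupffer and myeloid markers, 18 had a count in the 6 libraries, and their summed level was 62.6 to 225 CPM at 7 days and 42.9 to 501 CPM at 14 days. C1qb was at 59.1, 2.75 and 0 CPM at 7 days and at 81.1, 63.0 and 0 CPM at 14 days, so these transcripts divided libraries within each group. All 16 stellate and fibroblast markers had a count (50.7 to 180 CPM against 93.8 to 378 CPM), as did all 15 endothelial markers (16.5 to 88.6 CPM against 28.7 to 41.6 CPM). Of 15 lymphocyte and red cell markers, 9 were at 0 throughout (Cd3e, Cd79a and Hbb-bs among them), and the sum stayed within 0 to 6.70 CPM. Of the 18 members of these lists that could be tested, none passed, though 8 of 9 myeloid markers (median log2 fold change 1.64) and 6 of 6 stellate markers (median 0.80) were above 0. The myeloid sum was highest in 14-day replicates 1 and 2 and lowest in 14-day replicate 3. Their part in the genes above was not tested. Of the hepatocyte markers, Ttr (295 to 615 CPM), Apoa1 (335 to 1266 CPM), Serpina1c (337 to 870 CPM), Hnf4a and Alb were counted in all 6 libraries, Alb at the lower 14-day level given above. Markers shared with bile duct cells were counted in all 6 as well, with Sox9 at 205 to 504 CPM at 7 days and 452 to 537 CPM at 14 days, Spp1 at 455 to 634 CPM and 505 to 597 CPM, and Epcam at 1.80 to 4.80 CPM and 2.50 to 9.31 CPM. The libraries thus held transcripts of both kinds at both times, and which cells carried them was not tested.

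The step was then set against the one before it, from 4 to 7 days, in a fit of 9 libraries. In that fit 118 of 11407 genes were called from 7 to 14 days (1.03%) and 141 from 4 to 7 days (1.24%). The 2 steps share the 7-day libraries. By edgeR's test of the difference itself, no gene was called (0%), while 985 genes had an unadjusted p under 0.05. No other tool was run for it. Without 7-day replicate 1 the test called 751 genes, so that result rests on that library.

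The levels of single genes were then followed over the time course, scaled over all 49 libraries, as a description with no test. Of the 54 genes called lower, 45 already had a lower mean at 7 days than in freshly isolated hepatocytes. At 14 days, 51 had their lowest mean of the 7 time points. The highest mean was in freshly isolated hepatocytes for 8 (6 of the 36 outside the Mup family). Alb, for example, had its highest mean at 3 h (4302 CPM). Alb went from 4184 ± 598 CPM in fresh cells (SD, n = 3) to 453 ± 70.3 at 7 days and 110 ± 21 at 14 days. Mup20 went from 4550 ± 647 CPM to 1124 ± 428 at 4 days, 129 ± 50.4 at 7 days and 1.33 ± 0.84 at 14 days. Mbl2 was not monotonic, at 59.9 ± 12 CPM at 2 days, 214 ± 110 at 4 days, 117 ± 38 at 7 days and 14.6 ± 2.2 at 14 days.

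Among the genes called higher, Msln had no count in fresh cells, at 3 h or at 1 day, and reached 48.6 ± 23 CPM at 4 days, 71.2 ± 5.3 at 7 days and 391 ± 96 at 14 days. Timp2 was at 0 to 22.2 CPM in the single libraries up to 4 days, then reached 33.4 ± 2.6 CPM at 7 days and 326 ± 59 at 14 days. Crp, an acute-phase protein of hepatocytes named after its values were seen, ran the other way. It was at 2304 ± 590.5 CPM in fresh cells, 1.73 ± 1.9 at 7 days and 24.2 ± 12 at 14 days.

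In the passaged dediHeps (n = 5), Timp2 was at 287 to 557 CPM, Msln at 417 to 1137 CPM and Krt7 at 151 to 838 CPM. Mup20 (0 to 3.09 CPM) and Mbl2 (0 to 4.34 CPM) remained near 0, whereas Alb (64.2 to 965 CPM), Hp (139 to 1396 CPM) and Adh1 (14.8 to 559 CPM) spread widely between dediHep libraries and reached above their 7-day means. These are levels side by side, and no test was made between 14-day cells and dediHeps.

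**Figure D5:**
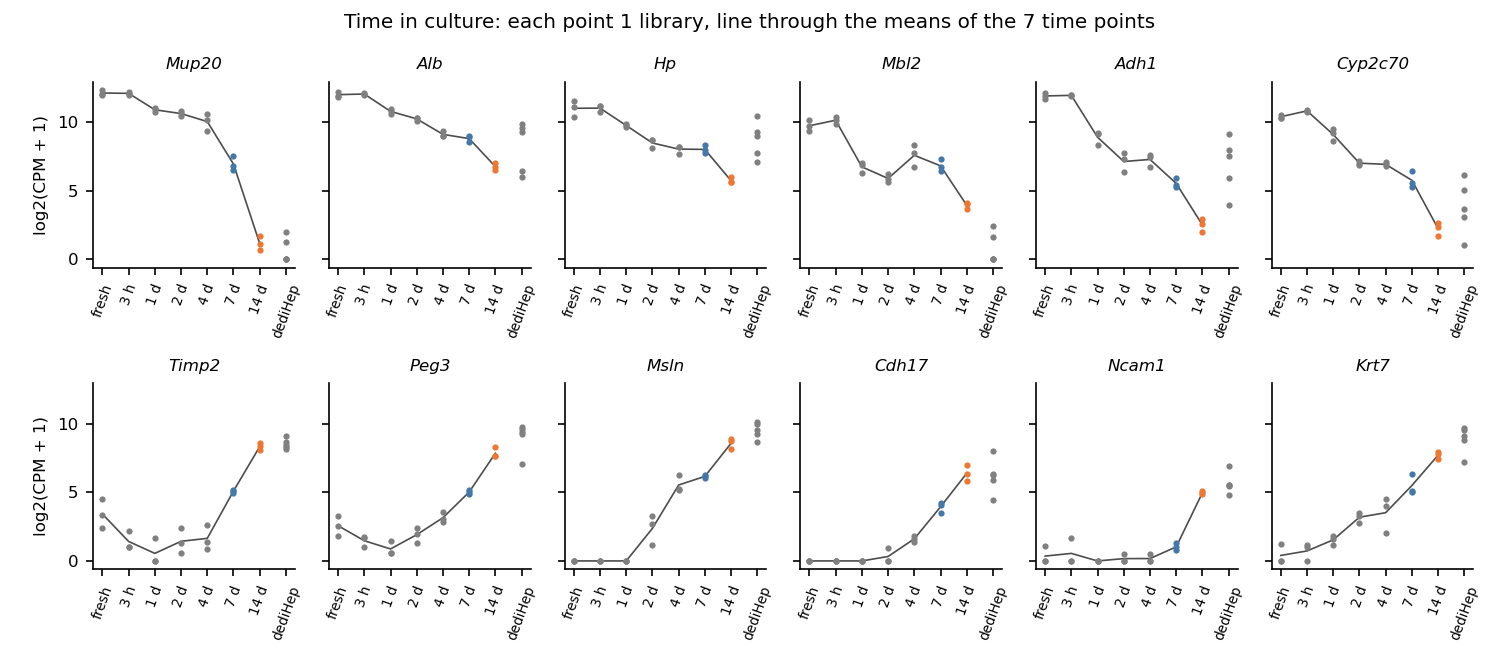
log2(CPM + 1) of 6 genes lower (top) and 6 higher (bottom) at 14 days, in fresh hepatocytes, 6 culture times and passaged dediHeps, 1 point per library, with the 7-day libraries in blue and the 14-day libraries in orange. The line joins the means of the 7 time points, and Mup20 drops from above 10 on this scale at 2 days to below 2 at 14 days.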

How the data were processed

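Bulk RNA was profiled by CEL-Seq2, which tags molecules at the 3′ end with a 6-base unique molecular identifier (UMI). Per the labels, the authors used bcl2fastq 2.20, Bowtie2 2.3.1 and HTSeq 0.6.0 with build GRCm38, and deposited 1 table of UMI counts, not normalized. The 4096 possible UMI sequences cap a count. Of 46078 identifiers, 45143 were paired with a symbol. The 3 libraries of 14 days and the 3 of 7 days entered 1 fit in edgeR 4.0.16 (R 4.3.3): filterByExpr, TMM, glmQLFit and glmQLFTest, with Benjamini-Hochberg adjustment. CPM are on TMM-scaled library sizes, except the summed predicted Gm genes and the CPM worth of 3 counts, which are on library totals. Fold changes are fitted, and intervals are 95%. The test, and thresholds of FDR 0.1 and log2 fold change 2, follow the study's methods. Named genes were those the study followed, the 10 with the smallest p in each direction and up to 4 per list, plus genes said to be named later. The members and lists were chosen with earlier results of these data known. Steps were tested on simulated data. Counting intervals and floors cover counting error only. Alternatives included DESeq2 1.42.0, other scalings and filters, thinning to 861047 counts, a correction for UMI collisions and leaving out each library. Some named genes and a promoter motif search are not reported here.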

Additional observations from a re-analysis of the deposited data

Results flagged for a closer look

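Among the dediHep libraries (n = 5), 1 library stood far above the other 4 in 2 genes called higher at 14 days. For Cdh17 the highest value was 257.6 CPM, against a median of 76.1 CPM. For Ncam1 the highest value was 117.9 CPM, against a median of 45.6 CPM. The gap to the nearest library was 0.74 and 0.785 of the whole range, above Dixon's critical value of 0.71 for 5 samples. Of the 12 genes examined in this way, these 2 were past that value, and chance flags about 1 in 20 groups.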

How the results depend on the processing

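With all 6 libraries, 126 genes were called (72 higher, 54 lower) and 150 passed the FDR at any fold. Size factors by the RLE method (128 called), UMI collision correction (132), an FDR of 0.05 (89), a log2 fold change over 1 (150) and all 49 libraries in one fit (127) stayed within 1.5 times. Of the 127 called with all 49 libraries in one fit, 85 were among the 126. Scaling by library totals gave 251 (169 lower) and 325 past the FDR, DESeq2 320 (217 lower) and 609, no low-count filter 617 (215 higher, 402 lower) and 1235, a minimum of 0.5 CPM in 1 library 625 (221 higher, 404 lower) and 1272, and the 7 time-course groups in one fit 218 (130 lower) and 359. Thinning to the shallowest library gave 90 (38 higher, 52 lower) of 8793 genes tested, and 72 of these were among the 126. A test against a log2 fold change of 1 gave 49 (22 higher, 27 lower). The 2 unfiltered fits tested 24744 and 23359 genes, and each called all 126. Leaving out 1 library at a time gave 28 to 979 called (9 to 353 higher, 19 to 626 lower), 28 to 3909 past the FDR, and 0 to 751 genes whose step from 7 to 14 days differed from that from 4 to 7 days (751 without 7-day replicate 1, 1 without 7-day replicate 2). Alternatives chosen after seeing the data were a GC correction (181 called, 259 past the FDR), the Mup family as 1 feature (105, with 35 lower) and 2 libraries left out (167).

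Whether replicate numbers pair the libraries is not given by the labels, and so few libraries cannot settle it. Deviations of same-numbered libraries correlated at 0.125, -0.0179 and 0.193, and 7-day replicate 1 correlated about as well with 14-day replicate 2 (0.123). With the replicate block 139 genes were called (83 higher, 56 lower), 116 of them among the 126, and no gene differed between steps (0). Of 47 named genes that passed, 18 passed in every alternative and none changed sign. Many of the 18 are Mup genes, which are not separate measurements. The others were Timp2, Ncam1, Hecw1, Peg3, Sox11, Msln, Hs6st2 and Kcnab1, all higher at 14 days. Of the 47, no gene lower at 14 days outside the Mup family passed in every alternative. Fgl1 and Gjb2, named after their values were seen, were not among the 47. Both were called in all 6 fits with 1 library left out. Depth limits the low genes. A count of 3 was worth 1.09 to 1.70 CPM in 5 libraries and 3.48 CPM in 14-day replicate 3.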
